A study of Arabidopsis thaliana with 27 samples.

Results

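Tubulin is the building block of microtubules. An alpha and a beta subunit form a dimer, and each subunit is encoded by a family of genes in Arabidopsis. In dividing root cells microtubules build the spindle and the phragmoplast, and in elongating cells the cortical array guides cellulose synthase and so orients the wall that restrains growth. The genes described here are the alpha and beta tubulins measured by 1 probe set each on an Affymetrix ATH1 array, chosen as every probe set with 1 assigned gene whose symbol begins with TUA or TUB and a digit. There were 7 such genes among 22746 probe sets tested, of which 13513 were assigned 1 gene. The alpha tubulins were TUA1 (AT1G64740) and TUA6 (AT4G14960), and the beta tubulins were TUB1 (AT1G75780), TUB5 (AT1G20010), TUB6 (AT5G12250), TUB7 (AT2G29550) and TUB9 (AT4G20890). RefSeq lists 6 alpha and 9 beta symbols of this form. The other 8 symbols had no probe set of their own in the annotation used, and 1 tubulin probe set assigned to 2 genes was left out. The tubulins are close copies, and how far transcripts of one copy bind probes of another was not tested.

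Roots were grown with 4.5% sucrose in MS medium, in days of 16 h light and 8 h dark, and their RNA was measured on 27 arrays. Columbia roots gave 3 developmental stages with 4 arrays each. Stage I lies about 0.15 mm from the tip, where the root reaches its full diameter, Stage II about 0.30 mm from the tip, where cells lose their optical density and start to lengthen, and Stage III 0.45 to 2 mm from the tip, where root hairs have reached full length. A further 5 lines, each with a GFP marker, gave 3 arrays each. They were J3411 (C24 background, lateral root cap plus epidermis), SCR (Landsberg, quiescent centre and endodermis, a tissue that the label of replicate 1 omits), WOL (Columbia, stele, with a signal that weakens from the elongation zone on), GL2 (Columbia, non-hair epidermal cells called atrichoblasts) and J0571 (Columbia, endodermis, cortex and quiescent centre). Line and genetic background cannot be told apart for J3411 and SCR. Plant age, any sorting of GFP-positive cells and the independence of the replicates are not stated in the labels, so the spread that the p-values rest on may be technical.

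The values are MAS5 signals, linear intensities that the authors scaled to the same trimmed mean on every array. They were compared with limma on log2(signal + 2.37), and a difference was called where the Benjamini-Hochberg adjusted p over all 22746 probe sets was under 0.05. Fold values are on that scale. Every tubulin exceeded the background of 14.78 on all 27 arrays, although TUA1 came close to it, with signals between 16.9 and 68.2. Because each probe set binds its target with its own strength, signals are compared between samples and never between genes. The arrays fell into 2 classes by the hybridisation spike-in cre: 8 arrays were low (replicates 1 and 2 of each stage, replicates 2 and 3 of SCR) and 19 were high. On the stage arrays the 3'/5' ratio of the GAPDH control, a measure of RNA quality, was 6.79 and 7.85 in Stage I, 5.37 and 5.43 in Stage II and 4.34 and 5.03 in Stage III in the low class. In the high class it was 17.8 and 28.9, 17.0 and 14.9, and 29.9 and 31.7, in the same order of stages. The stages were thus separate within each class, in a different order in each, and the part of RNA quality in the stage results was not tested. On the line arrays it was 0.717 to 4.09. The signal of the 3' actin control, in contrast, set some lines apart. No J3411 array exceeded 153 for this control and no J0571 array exceeded 258. Every SCR, WOL and GL2 array reached at least 1063, and every stage array at least 855. The part of this gap in the calls of TUB6 in J3411 and TUB5 in J0571 was not tested. J3411 replicate 3 differed in its markers from replicates 1 and 2 of that line. Its 3 measured root hair markers summed to 644, against 56.1 and 47.4, and its 4 measured root cap markers to 2939.7, against 5769 and 5962. In bulk samples such as these, fewer cells of a type and less RNA per cell cannot be told apart.

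The comparison of Stage II with Stage I asks what changes as root cells begin to elongate. Of the 5 beta tubulins, 4 rose and none fell; neither alpha tubulin changed by this test. Over all probe sets, 8.99% were called higher in Stage II and 11.1% lower, or 20.1% in either direction. The median log2 difference was 0.60 over the 7 tubulins and -0.09 over all probe sets. All 4 Stage II arrays exceeded all 4 Stage I arrays for these 4 genes, a separation found in either direction for 25.3% of all probe sets.

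**Figure D1:**
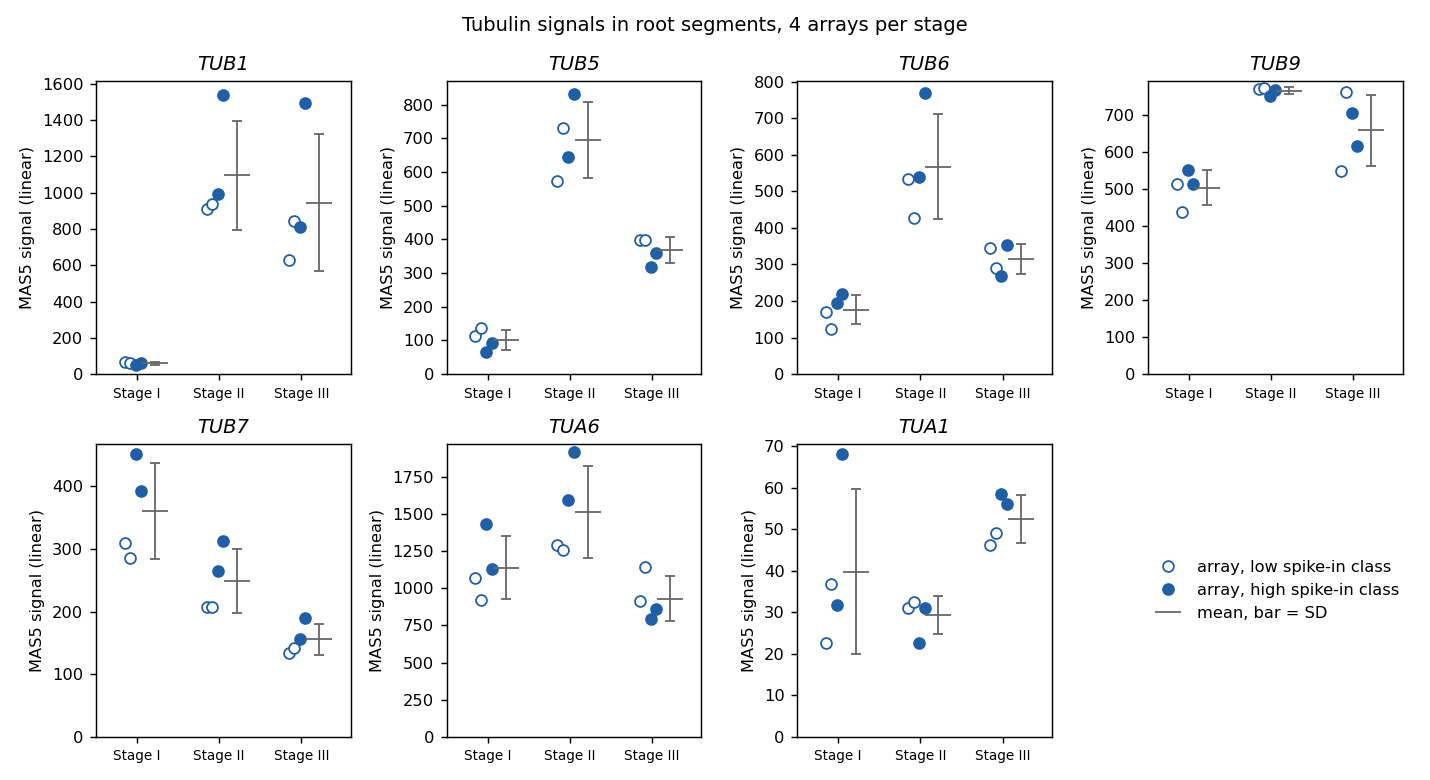
MAS5 signal (vertical axes, linear, each starting at 0) of the 7 tubulins in Stages I, II and III. Points are the 4 arrays of a stage, open for the low and filled for the high spike-in class, with the mean and SD beside them. TUB1 lay between 48.6 and 69.1 in Stage I and at 627 or more in both other stages, whereas TUB7 was highest in Stage I and lowest in Stage III.

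TUB1, a beta tubulin known for its preferential expression in roots, changed most. Its signal was 69.1, 58.9, 48.6 and 59.7 in Stage I, 907, 939, 994 and 1540.0 in Stage II, and 627, 844, 813 and 1491 in Stage III. The Stage I arrays were uniformly low, and the ranges of the 2 later stages overlapped. TUB1 rose 17.6-fold in Stage II over Stage I (log2 difference 4.13 ± 0.25 SE, n = 4 each, limma adjusted p = 5.7e-07), and this difference ranked 29 among 22746 probe sets ordered from the largest rise. The difference was 3.81 within the low spike-in class and 4.46 within the high class, with 2 arrays per stage in each.

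TUB1 showed no detectable further change in Stage III relative to Stage II, where it averaged 944 ± 377, against 1095 ± 299 in Stage II (SD, n = 4 each). The log2 difference was -0.26, with a 95% confidence interval from -0.79 to 0.27 (limma adjusted p = 0.491), which leaves room for a fall of up to that bound. In Stage III TUB1 was still 14.7-fold above Stage I (log2 difference 3.88 ± 0.25 SE, n = 4 each, limma adjusted p = 1.39e-07).

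TUB5, another beta tubulin, had its highest signals in Stage II and intermediate ones in Stage III. It measured 113, 137, 65.3 and 92.6 in Stage I, 572, 730.0, 645 and 832 in Stage II, and 399, 399, 317 and 361 in Stage III. None of the 3 ranges overlapped. TUB5 rose 6.85-fold in Stage II over Stage I (log2 difference 2.78 ± 0.21 SE, n = 4 each, limma adjusted p = 2.7e-06). It fell by 0.90 on the log2 scale in Stage III relative to Stage II (SE 0.21, limma adjusted p = 0.00409), and remained 3.66-fold above Stage I (limma adjusted p = 5.42e-06).

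TUB6, a beta tubulin often fused to a fluorescent protein to display microtubules, showed the same order of stages. Its signal was 171, 123, 194 and 219 in Stage I, 535, 428, 539.8 and 769.7 in Stage II, and 345, 290.4, 269 and 353 in Stage III. Again no ranges overlapped. TUB6 rose 3.18-fold in Stage II over Stage I (log2 difference 1.67 ± 0.21 SE, n = 4 each, limma adjusted p = 9.77e-05), fell by 0.83 on the log2 scale in Stage III relative to Stage II (limma adjusted p = 0.00750) and stood 1.79-fold above Stage I in Stage III (limma adjusted p = 0.00426). The last of these was smaller in the high spike-in class, at a log2 difference of 0.57 with an adjusted p of 0.0874, than in the low class, at 1.11.

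TUB9, a further beta tubulin, rose the least of the 4. It measured 514, 439, 551 and 514 in Stage I, 770.2, 774, 753 and 768 in Stage II, and 548, 764, 707 and 617 in Stage III. The Stage II arrays agreed closely and lay above every Stage I array, and Stage III overlapped with both. TUB9 rose 1.52-fold in Stage II over Stage I (log2 difference 0.60 ± 0.15 SE, n = 4 each, limma adjusted p = 0.0116); in the high spike-in class alone the difference was 0.51 and the call was lost (adjusted p = 0.0987). In Stage III relative to Stage I the log2 difference was 0.38 (limma adjusted p = 0.0605), and it was called with the replicate number as a block (adjusted p = 0.0466).

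TUB7 was the 1 beta tubulin whose mean signal was lower in both later stages than in Stage I. Its signal was 309, 286, 452 and 393 in Stage I, 208, 207, 265 and 313 in Stage II, and 134, 142, 157 and 189 in Stage III. Stage III lay below every array of the other stages, while Stages I and II overlapped. TUB7 fell by 1.18 on the log2 scale in Stage III relative to Stage I (SE 0.19, n = 4 each, limma adjusted p = 0.000157), which is 2.27-fold. Between successive stages it fell by 0.66 in Stage III relative to Stage II (limma adjusted p = 0.0181). In Stage II relative to Stage I the log2 difference was -0.53, not called without the replicate block (limma adjusted p = 0.0695) and called with it (adjusted p = 0.00869).

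The alpha tubulins moved less. TUA6, whose GFP fusion is a standard microtubule marker, gave 1072, 924, 1430.2 and 1131 in Stage I, 1289, 1259, 1594 and 1917 in Stage II, and 918, 1147, 796 and 863 in Stage III. Stage III lay below Stage II without overlap, and Stage I overlapped with both. TUA6 fell by 0.69 on the log2 scale in Stage III relative to Stage II (SE 0.21, n = 4 each, limma adjusted p = 0.0197). The log2 difference was -0.31 within the low spike-in class and -1.07 within the high class. In Stage II relative to Stage I the log2 difference was 0.41, with a 95% confidence interval from -0.04 to 0.85 (limma adjusted p = 0.200).

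TUA1, an alpha tubulin known for its expression in pollen, was dim throughout. Its signal was 22.5, 36.7, 31.8 and 68.2 in Stage I, 31.1, 32.6, 22.5 and 31.0 in Stage II, and 46.1, 49.0, 58.4 and 56.0 in Stage III. Every Stage III array exceeded every Stage II array, and the Stage I arrays were widely spread. The log2 difference of Stage III over Stage II was 0.80 ± 0.29 SE (n = 4 each, limma adjusted p = 0.0517), and it was called with the replicate block (adjusted p = 0.0369).

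In all, 4 of the 7 tubulins fell in Stage III relative to Stage II (TUB5, TUB6, TUB7 and TUA6) and none rose. Over all probe sets 15.2% were called lower and 15.8% higher, or 30.9% in either direction. The calls of TUA6 and TUB7 were lost when Stage II replicate 3 was left out (adjusted p = 0.0525 and 0.0510) or Stage II replicate 4 (0.0658 and 0.0633), and that of TUA6 also without Stage III replicate 3 (0.0599). For 5 tubulins the 2 stages did not overlap, as for 31.4% of all probe sets. In Stage III relative to Stage I, 3 tubulins were higher and 1 was lower, with 21.0% of all probe sets called higher and 22.1% lower, or 43.1% in either direction; 4 tubulins did not overlap, as for 40.4% of all probe sets. With the replicate number as a block 5 tubulins were called in each stage comparison, beside 26.1% of all probe sets in Stage II minus Stage I, 36.5% in Stage III minus Stage II and 47.6% in Stage III minus Stage I.

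**Figure D2:**
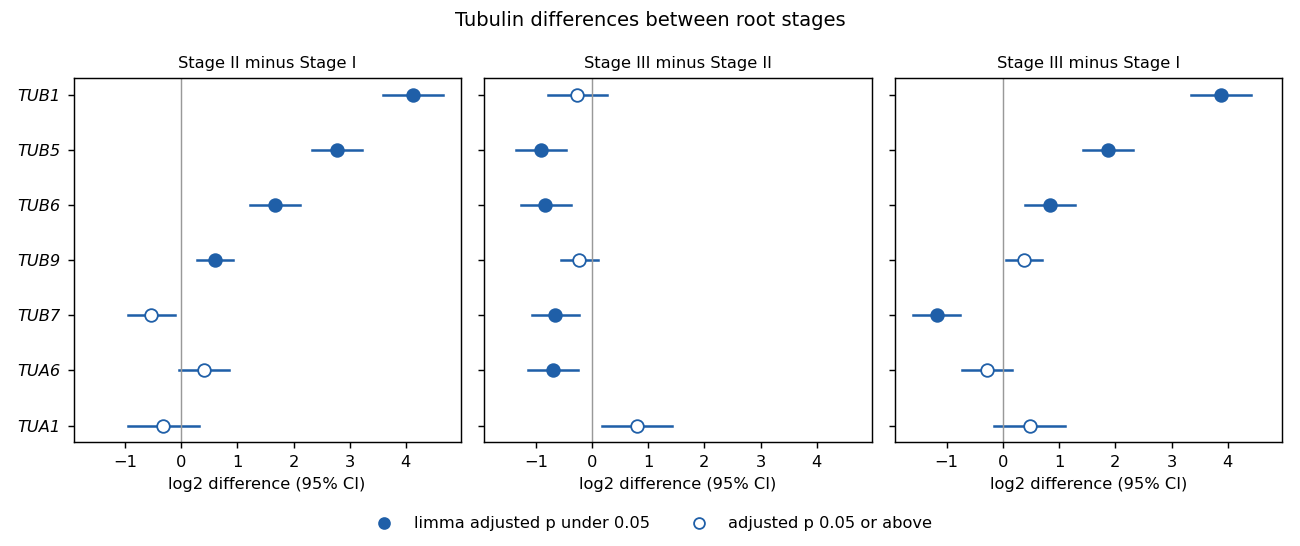
Fitted log2 differences (horizontal axes, the first-named stage over the second) of the 7 tubulins in the 3 stage comparisons, with 95% confidence intervals. Filled points passed a limma adjusted p of 0.05. TUB1, TUB5, TUB6 and TUB9 lie to the right of 0 in Stage II minus Stage I, and TUB7 lies to the left of 0 in all 3 panels.

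The same stage arrays were also read as pairs by number, which adds no independent support. Where the stages compared did not overlap, 4 of 4 followed from that separation. The share of all probe sets with 4 of 4 was not computed. Within every one of the 4 numbers, Stage II exceeded Stage I for TUB1, TUB5, TUB6, TUB9 and TUA6 and lay below it for TUB7. The differences ran from 3.67 to 4.64 on the log2 scale for TUB1, from 2.32 to 3.26 for TUB5 and from 1.46 to 1.80 for TUB6. In Stage III relative to Stage II, all 5 beta tubulins and TUA6 were lower in 4 of 4 numbers, and TUA1 was higher in 4 of 4. The differences were -0.53 to -0.05 for TUB1 and -0.75 to -0.53 for TUB7. For TUB1 and TUB9 this step was not called (limma adjusted p = 0.491 and 0.298).

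The mix of cells differed between stages on the same arrays. The 4 measured root cap markers of 7 listed summed to 1661 to 2827 in Stage I, 433 to 655 in Stage II and 256 to 376 in Stage III. Such a sum is weighted towards its brightest genes. PASPA3, 1 of these markers, averaged 138, 84.0 and 132 in the same order. It was not called in Stage III relative to Stage I (limma adjusted p = 0.895), where the other root cap markers fell. The 5 measured cell division genes of 10 listed summed to 1547 to 1987, 443 to 581 and 193 to 297. The 3 measured root hair markers of 8 summed to 49.1 to 243, 57.8 to 293 and 2718 to 4629. The 3 endodermis markers of 9 summed to 49.6 to 153, 146 to 667 and 1551 to 2260.4. Of these, AT4G11290 rose in Stage II over Stage I by a log2 difference of 5.06 (limma adjusted p = 7.84e-05). AT2G39430, at -0.68, was not called (adjusted p = 0.406). GSO1, at 0.67, was called only with the replicate block (adjusted p = 0.0465, against 0.0526 without it). The 3 measured cortex markers of 3 summed to 73.2 to 129.9, 239.9 to 532 and 159 to 229.5 in Stages I, II and III. Among them AT1G09750 rose in Stage II over Stage I by a log2 difference of 3.68 (limma adjusted p = 1.07e-06) and fell by 0.80 in Stage III relative to Stage II (adjusted p = 0.0211). The other cortex markers, CO2 and JKD, had log2 differences of -0.88 and -0.24 in Stage II relative to Stage I and were not called (limma adjusted p = 0.0903 and 0.681). The cortex sum, like TUB5 and TUB6, was highest in Stage II, but of its 3 genes only AT1G09750 had its highest mean there. The 3 measured stele and xylem markers of 7 summed to 87.4 to 146, 49.1 to 121 and 635 to 888. AT5G51890 and IRX15 among them rose in Stage III over Stage II (limma adjusted p = 6.52e-06 and 0.0250), and PHV was not called (0.107). In Stage III, AT5G51890 averaged 721 and PHV 47.7. Of all these genes, IRX15 in Stages I and II was the 1 at background on every array of a stage. The part of the cell mix in the tubulin differences was not tested.

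Other genes that act on tubulin and microtubules were followed through lists by locus, of which only 11 of 60 genes had a probe set of their own. In Stage II relative to Stage I, 3 of these 11 rose and 1 fell, against 8.99% of all probe sets higher and 11.1% lower. Their median log2 difference was 0.06, and that of all probe sets -0.09. SPR1 and SP1L3, members of a plant family of small microtubule-localised proteins that act in directional cell growth, rose. SPR1 averaged 1162 ± 347 in Stage II and 589.8 ± 133 in Stage I (SD, n = 4 each; log2 difference 0.96, limma adjusted p = 0.0163). SP1L3 averaged 674 ± 129.9 and 382 ± 62.7 in the same order (0.81, adjusted p = 0.00946). TON1B, one of a pair of proteins needed to organise the cortical array and the preprophase band, rose by a log2 difference of 0.70 (adjusted p = 0.0184), and AT4G14330, listed with the kinesin motors, fell by 1.56 (adjusted p = 0.0170). SP1L4 had a log2 difference of 1.03 that was not called (adjusted p = 0.0642) and was called with the replicate block (adjusted p = 0.0404).

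The 2 measured tubulin folding cofactors, TFCC and TFCE, which help to assemble the alpha-beta dimer, did not pass the test between Stages II and I, with log2 differences of -0.07 and 0.03 (limma adjusted p = 0.849 and 0.933). Both fell in Stage III. TFCC averaged 50.1 ± 3.21 in Stage III and 82.3 ± 3.62 in Stage II (SD, n = 4 each), a log2 difference of -0.69 (limma adjusted p = 0.00859). TFCE averaged 67.6 ± 13.8 and 139 ± 17.3 in the same order, a log2 difference of -1.03 (adjusted p = 0.000503). Of the 11 genes, 3 rose and 3 fell in Stage III relative to Stage II, against 15.8% of all probe sets higher and 15.2% lower, with a median log2 difference of -0.11, against 0.08 over all probe sets. MAP65-6, of a family that bundles microtubules, averaged 516 ± 174 in Stage III and 74.4 ± 9.67 in Stage II (log2 difference 2.69, limma adjusted p = 6.68e-06). SP1L4, of the SPR1 family, averaged 1005 ± 549 and 94.7 ± 37.0 (3.28, adjusted p = 2.49e-05), SP1L5, whose Stage II mean of 12.7 lay below background, also rose (1.03, adjusted p = 0.0460), and SP1L3 fell by 0.74 (adjusted p = 0.00998). In Stage III relative to Stage I, 4 of the 11 rose (SP1L4, MAP65-6, SPR1 and TON1B) and 3 fell (AT4G14330, TFCE and TFCC), against 21.0% of all probe sets higher and 22.1% lower. AT5G17410, on the nucleation list, had a log2 difference of -0.72 there, not called (adjusted p = 0.0570) and called with the replicate block (adjusted p = 0.0405).

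Genes of primary-wall cellulose synthesis, the process that cortical microtubules guide, had 2 measured members of 10. COB, which orients cellulose deposition, averaged 699 ± 81.9 in Stage II and 179 ± 33.3 in Stage I (SD, n = 4 each; log2 difference 1.96, limma adjusted p = 7.42e-06). AT1G45688 rose by 1.38 (adjusted p = 0.000143). Between Stages III and II, COB was not called, and AT1G45688 had a log2 difference of 0.43 that was not called (adjusted p = 0.0876) and was called with the replicate block (adjusted p = 0.0455). Of 8 actins 2 were measured. ACT11 rose by 1.19 in Stage II over Stage I (adjusted p = 0.00203). Its log2 difference of 0.60 in Stage III over Stage II was called only with the replicate block (adjusted p = 0.0280, against 0.0577 without it). ACT12, with signals averaging 4.34 ± 4.06 in Stage II and 1.32 ± 0.444 in Stage I, lay below background. All 5 measured cell division genes fell in Stage II relative to Stage I, where 11.1% of all probe sets were called lower and 8.99% higher. This list, like the others, was chosen with earlier results of these data known, so the count is a description. BUB3.1, a spindle checkpoint protein, fell by 1.63 (adjusted p = 2.18e-05), and AUR2, an Aurora kinase, by 1.98 (adjusted p = 1.1e-05).

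The marker lines ask how tubulin levels differ between cell types. Each line was set against the other 4 together, so these comparisons share arrays. TUB5 had 3 of the 5 line calls, while TUB6 and TUB7 had 1 each. Every line comparison thus called 1 of the 7 tubulins. The share called among all probe sets was lowest for J0571, at 4.69%, and highest for SCR, at 17.5%. TUB1, TUB9, TUA6 and TUA1 were called in no line comparison by limma at an adjusted p of 0.05, although 2 line differences of TUB1 (J3411 and SCR) and 1 of TUA1 (WOL) had an unadjusted p under 0.05.

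**Figure D3:**
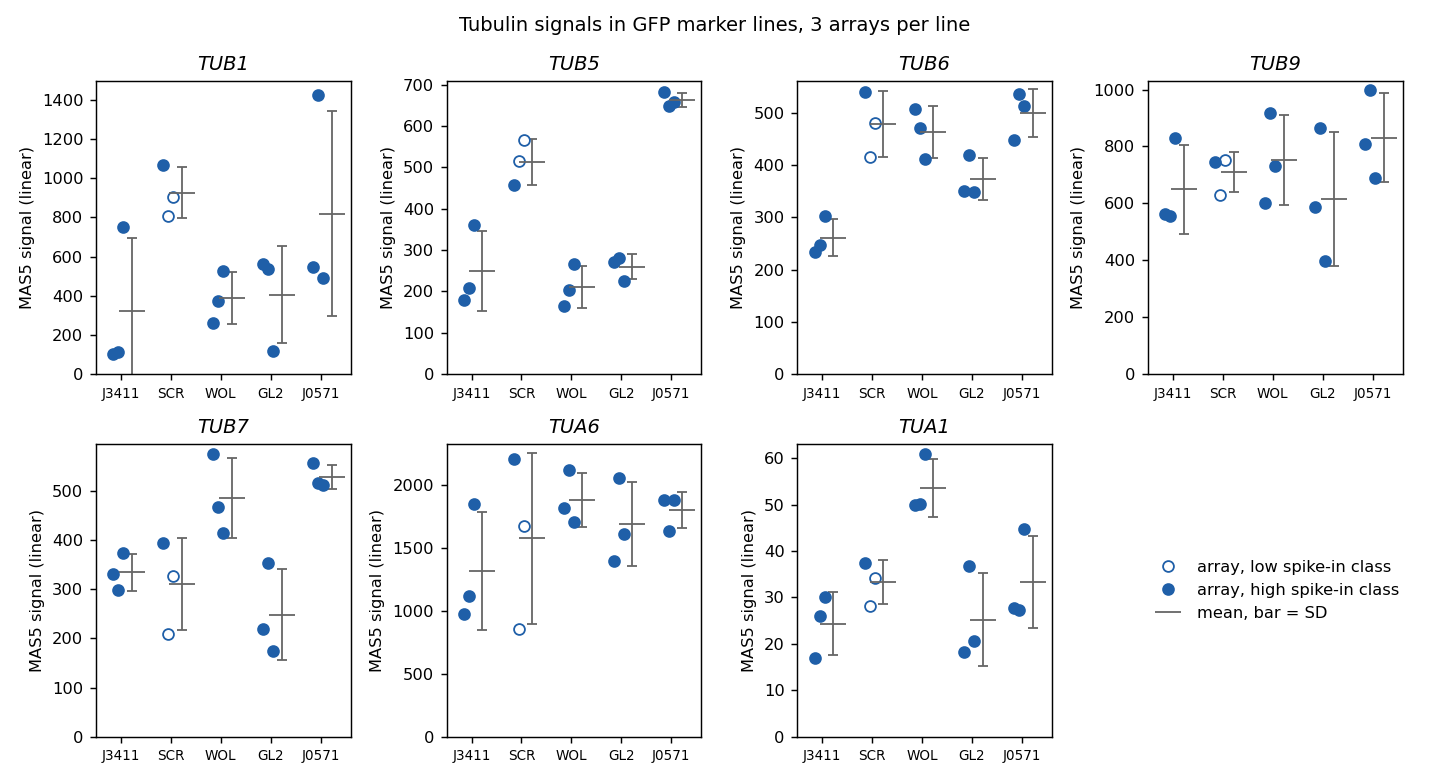
MAS5 signal (vertical axes, linear, each starting at 0) of the 7 tubulins in the 5 marker lines. Points are the 3 arrays of a line, open for the low and filled for the high spike-in class, with the mean and SD beside them; the lower SD bar of TUB1 in J3411 passes below the axis. The 3 J0571 arrays for TUB5 sit between 649 and 682, above all other lines, and the TUB1 arrays of J3411, GL2 and J0571 are widely spread.

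TUB5 signal was 682, 649 and 659 in J0571, the ground tissue line. On the other arrays it was 179.7, 207 and 361 in J3411, 456, 514 and 567 in SCR, 165, 204 and 265 in WOL, and 272, 281 and 226 in GL2. J0571 and SCR, the 2 lines whose label includes the endodermis, held the 6 highest values. TUB5 averaged 663 ± 16.9 in J0571 (SD, n = 3) and 308 ± 136 over the other 4 lines (n = 12), 2.32-fold higher (log2 difference 1.22 ± 0.20 SE, limma adjusted p = 0.00160). It was the 1 tubulin called in J0571, where 4.69% of all probe sets were called (2.44% higher), and the 1 tubulin whose J0571 arrays did not overlap with the rest, as for 1.53% of all probe sets. Among the 3 lines labelled Columbia alone the log2 difference was 1.51 (adjusted p = 0.000312).

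TUB5 was also the 1 tubulin called in SCR, where it averaged 512 ± 55.9 (SD, n = 3), against 346 ± 198 over the other 4 lines (n = 12; log2 difference 0.74, limma adjusted p = 0.0164). In this comparison 17.5% of all probe sets were called (7.61% higher). SCR lay above all J3411, WOL and GL2 arrays and below all J0571 arrays. Leaving out SCR replicate 2 (adjusted p = 0.0697) or replicate 3 (0.0988) ended the call, as did a block for the spike-in class, where the log2 difference was 0.58 (0.392). In the high class alone, which holds 1 SCR array, it was also 0.58 (0.405). That array, SCR replicate 1, had the lowest TUB5 signal of its line, 456, and more marker signal of other cell types than replicates 2 and 3. Its root cap sum was 742, against 89.7 and 73.6, and its root hair sum 187, against 21.7 and 25.9. Without it the log2 difference was 0.83 (adjusted p = 0.0181), and the part of the markers was not tested. SCR replicate 2 had a GAPDH 3'/5' ratio of 4.09, against at most 1.95 on the other line arrays. The part of that ratio was not tested either.

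In WOL, the stele line, TUB5 was the 1 tubulin called, in a comparison with 6.66% of all probe sets called (1.38% lower). It averaged 211 ± 49.9 in WOL (SD, n = 3) and 421 ± 189.5 over the other 4 lines (n = 12), and fell by 0.87 on the log2 scale (SE 0.20, limma adjusted p = 0.0127). WOL overlapped with J3411 and GL2 and lay below SCR and J0571. Leaving out WOL replicate 1 (adjusted p = 0.127) or replicate 2 (0.0811) ended the call. Among the 3 lines labelled Columbia the log2 difference was -0.99 (adjusted p = 0.00397).

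TUB6 was the 1 tubulin called in J3411, the root cap and epidermis line, where 10.3% of all probe sets were called (5.28% lower). Its signal was 234, 248 and 302 in J3411, against a lowest of 349, a median of 460.1 and a highest of 541 on the 12 arrays of the other lines. Those other arrays were 541, 415 and 480.2 in SCR, 508, 472 and 411 in WOL, 351, 420.3 and 349 in GL2, and 448, 536 and 514 in J0571. All 3 J3411 arrays lay below the other 12, as for 2.88% of all probe sets in either direction. TUB6 fell by 0.78 on the log2 scale in J3411 relative to the other 4 lines (SE 0.15, n = 3 and 12, limma adjusted p = 0.00241), which is 1.72-fold.

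J3411 replicate 3, the array with more root hair and less root cap marker signal, also had more TUB1 and TUB5. TUB1 measured 102, 114 and 753 on the 3 J3411 arrays, with the other 12 line arrays between 119 and 1423. Its log2 difference in J3411 was -1.36 ± 0.54 SE (limma adjusted p = 0.143). Without replicate 3 it was -2.29 (adjusted p = 0.00427), and that of TUB5 was -0.92 (0.00315), against -0.62 with all arrays (0.0563). TUB6 was called with and without it. The part of the marker difference in these values was not tested.

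TUB7 fell in GL2, the atrichoblast line, where 12.8% of all probe sets were called (7.69% lower). It measured 219, 353 and 174 in GL2, 331, 299 and 374 in J3411, 395, 209.7 and 326 in SCR, 575, 468 and 415 in WOL, and 557, 516 and 513 in J0571. WOL and J0571 held the 6 highest values, and GL2 overlapped with J3411 and SCR. The log2 difference of GL2 was -0.74 ± 0.21 SE (n = 3 and 12, limma adjusted p = 0.0311). It was not called without GL2 replicate 1 (adjusted p = 0.122) or replicate 3 (0.230). J0571 had a log2 difference of 0.69 for TUB7 (adjusted p = 0.0830) and WOL one of 0.52 (adjusted p = 0.198).

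**Figure D4:**
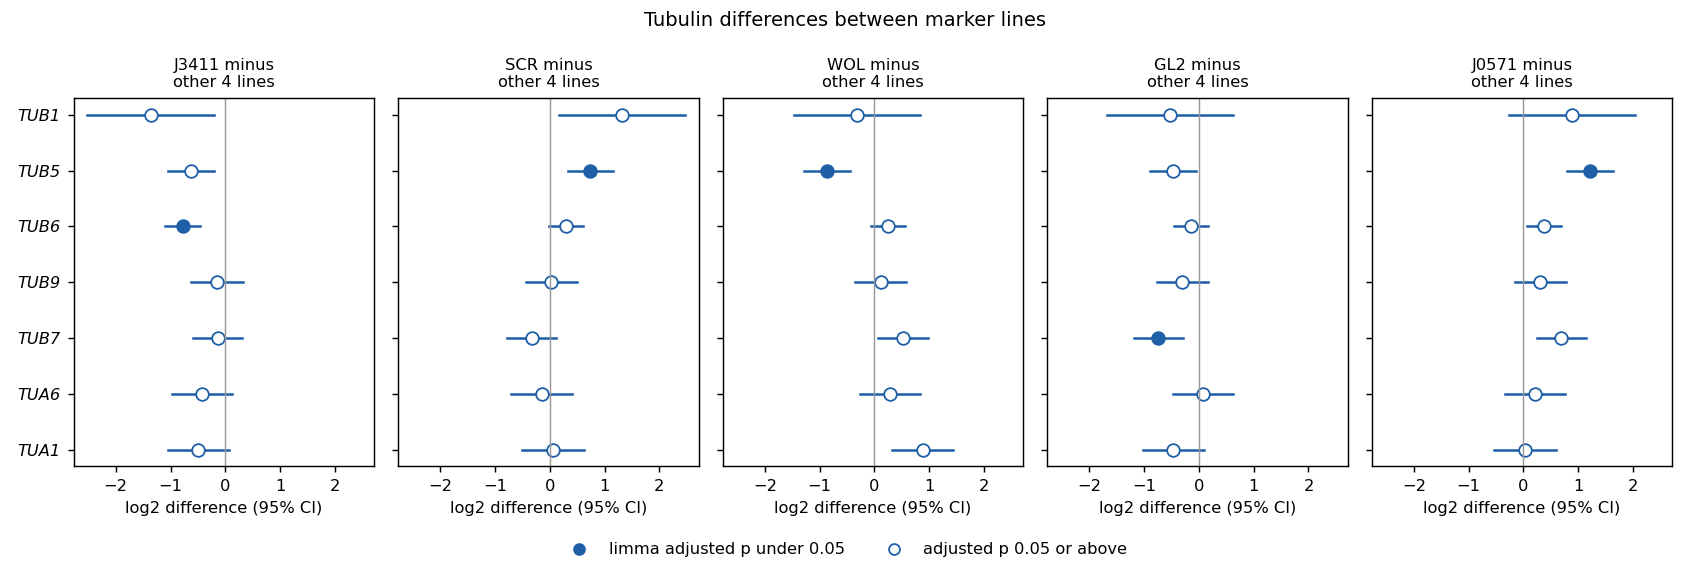
Fitted log2 differences (horizontal axes, each line minus the mean of the other 4) of the 7 tubulins, with 95% confidence intervals. Filled points passed a limma adjusted p of 0.05: TUB6 in J3411, TUB5 in SCR, WOL and J0571, and TUB7 in GL2.

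TUB1 varied widely within 3 lines, with a coefficient of variation of 115% in J3411, 61.3% in GL2 and 63.8% in J0571. It measured 1066, 808 and 902 in SCR, 262, 373 and 526 in WOL, 562, 536 and 119 in GL2, and 545, 1423 and 492 in J0571. SCR lay above all WOL and GL2 arrays, while J0571 replicate 2 was the highest and GL2 replicate 3 was close to the low J3411 arrays. TUB1 averaged 925 ± 130.3 in SCR (SD, n = 3) and 484 ± 363 over the other 4 lines (n = 12; log2 difference 1.31, with a 95% confidence interval from 0.16 to 2.47, limma adjusted p = 0.114). Without J3411 replicate 3 this difference was 1.54 (adjusted p = 0.0160).

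TUA1 measured 49.8, 50.2 and 60.8 in WOL, and 16.9 to 44.7 on the other 12 line arrays. WOL lay above all of them, as for 3.74% of all probe sets in either direction, with a log2 difference of 0.88 ± 0.26 SE (n = 3 and 12, limma adjusted p = 0.0610). TUB9 and TUA6 differed least between lines by their line means. TUB9 measured 563, 555 and 830.1 in J3411, 745, 629.6 and 754 in SCR, 603, 918 and 733 in WOL, 586, 864 and 397 in GL2, and 807, 999 and 688 in J0571. TUA6 measured 979.6, 1119 and 1852 in J3411, 2208, 858 and 1672 in SCR, 1817, 2118 and 1711 in WOL, 1399.7, 2054 and 1610.5 in GL2, and 1879.9, 1634 and 1885 in J0571. For both genes no line was free of overlap with the other 4 together. Line means of TUB9 ran from 616 in GL2 to 832 in J0571, 1.35-fold apart, and those of TUA6 from 1317 in J3411 to 1882 in WOL, 1.43-fold apart. Their log2 differences lay between -0.30 and 0.30 for TUB9 and between -0.42 and 0.29 for TUA6.

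Cell type markers were read on the same line arrays. Endodermis markers summed to 2023 to 6552 in J0571, 4348 to 6893 in SCR and 906 to 2649.6 in WOL, and to at most 118 in J3411 and GL2. Within J0571 the array with the highest TUB1 signal, replicate 2, also had the highest endodermis sum, 6552, against 2317 and 2023. Its cortex sum was the lowest of the line, 422, against 749 and 975. Among the cortex markers AT1G09750 was nevertheless highest on that array, at 258, against 139 and 231. Root cap markers summed to 2939.7 to 5962 in J3411, 1159 to 1372 in GL2, 518 to 1155 in WOL, 161 to 429 in J0571 and 73.6 to 742 in SCR. Root hair markers summed to 335 to 757 in WOL, the stele line, and to 21.7 to 187 in SCR, GL2 and J0571. The cortex gene JKD was at background on every J3411 and GL2 array, and the xylem gene IRX15 in every line other than WOL. The 3 measured stele and xylem markers of 7 summed to 291 to 444 in WOL and to at most 69.4 in the other lines, and the 3 cortex markers to 422 to 975 in J0571 and at most 166 elsewhere. AGL42, the 1 measured quiescent centre marker of 2, gave 38.7 to 56.6 in SCR, 50.4 to 65.4 in WOL and 7.17 to 24.1 in J0571. The atrichoblast marker GL2 was not analysed here. The part of these mixtures in the tubulin differences was not tested.

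**Figure D5:**
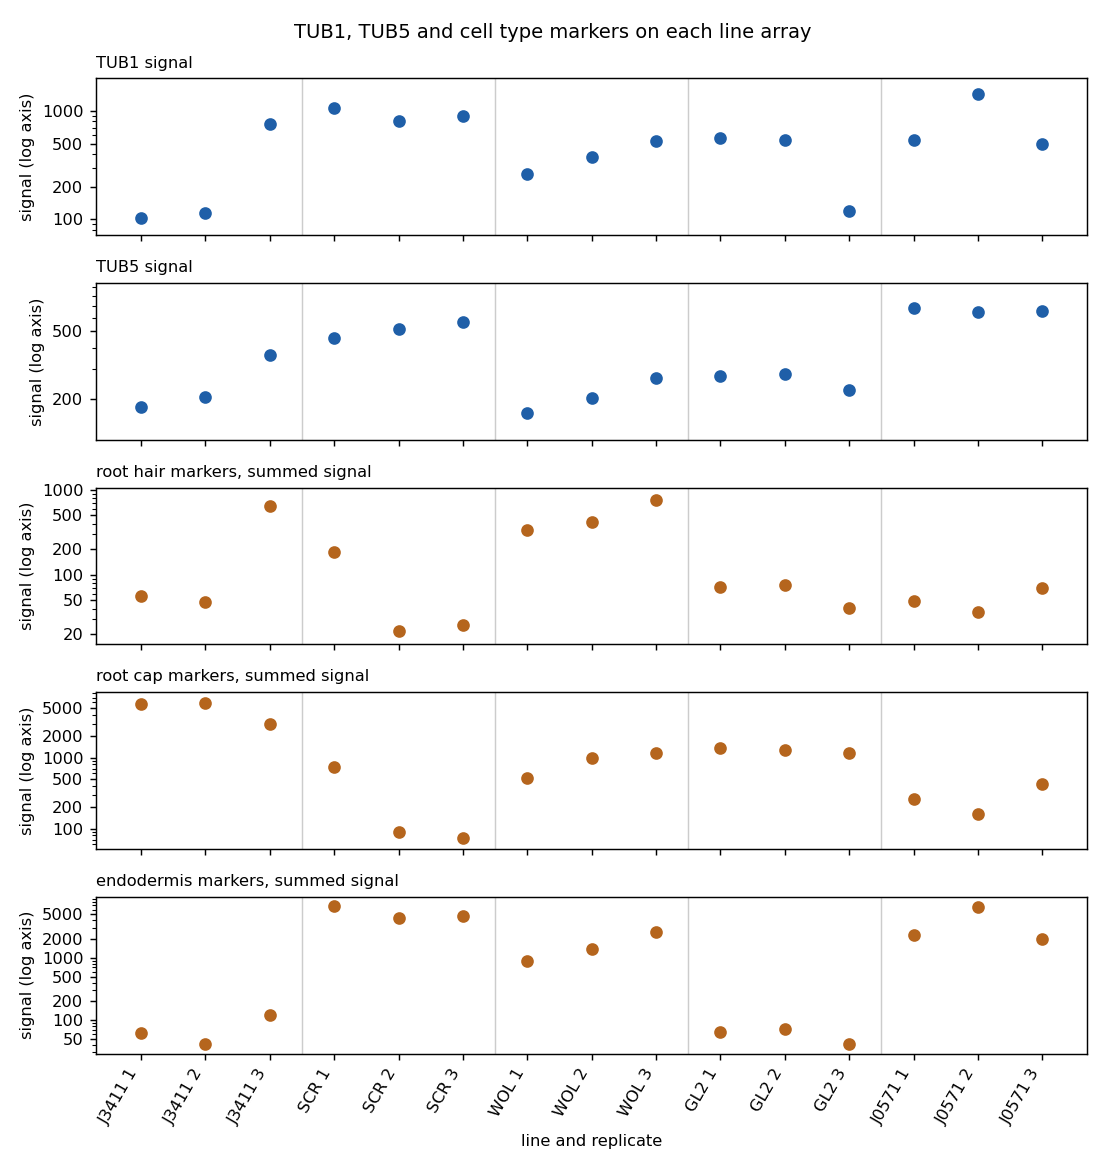
Signal of TUB1 and TUB5 and summed signal of the root hair, root cap and endodermis markers (vertical log axes) on each of the 15 line arrays (horizontal axis, line and replicate). J3411 replicate 3 has more TUB1, TUB5 and root hair signal than the other J3411 arrays, and J0571 replicate 2 has the highest TUB1 and endodermis values of its line.

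Of the 11 microtubule-related genes, 2 were higher in WOL, where 5.27% of all probe sets were called higher. They were SP1L4 (176 ± 35.0 in WOL and 60.5 ± 44.6 over the other 4 lines, SD, n = 3 and 12; log2 difference 1.74, limma adjusted p = 0.0310) and SP1L2 (1.23, adjusted p = 0.0429). SP1L2 averaged 16.1 ± 4.57 in WOL, close to background, and 6.09 ± 3.64 over the other lines, below it. In GL2 1 of the 11 was lower, against 7.69% of all probe sets. It was MAP65-6 (56.8 ± 14.2 in GL2 and 115 ± 26.0 over the other 4 lines; log2 difference -0.98, adjusted p = 0.00666). None was called in J3411, SCR or J0571 by limma. ACT11 was higher in WOL, at 614 ± 294, against 129 ± 49.0 over the other lines (log2 difference 2.25, adjusted p = 0.000166).

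Over all 8 groups the order of group means differed between the tubulins. TUB1 ran from 1095 in Stage II through 944 in Stage III, 925 in SCR, 820.2 in J0571, 406 in GL2, 387 in WOL and 323 in J3411 to 59.1 in Stage I. Only the last step, from J3411 to Stage I, was free of overlap. TUB5 ran from 695 in Stage II through 663 in J0571, 512 in SCR, 369 in Stage III, 259.7 in GL2, 249 in J3411 and 211 in WOL to 102 in Stage I. Its neighbours overlapped at the top (Stage II with J0571) and among GL2, J3411 and WOL. The highest group mean was 18.5-fold above the lowest for TUB1, 6.81-fold for TUB5, 3.40-fold for TUB7, 3.21-fold for TUB6, 2.20-fold for TUA1, 2.02-fold for TUA6 and 1.65-fold for TUB9. Stage and line arrays were fitted apart, so these orders across both are a description. The GAPDH 3'/5' ratio was 4.34 to 31.7 on the stage arrays and 0.717 to 4.09 on the line arrays. RNA quality and the step from stages to lines thus cannot be told apart here.

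TUB6 had its highest group mean in Stage II, 568, and its lowest in Stage I, 177, with J3411 next at 262 and no overlap between those 2. TUB7 was highest in J0571, 529, and WOL, 486, and lowest in Stage III, 156, which overlapped with no neighbour. For TUA1, TUA6 and TUB9 every pair of neighbouring groups overlapped. TUB1, TUB5 and TUB6 had the same lowest and highest group, and TUB7 had its lowest group elsewhere.

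Across the 27 arrays, which share scaling and tissue mix, the genes whose log2 signal most resembled a tubulin are given as a description. Over 9358 probe sets with a mean above background, the closest to TUB1 were AT3G07010 (Pearson's r = 0.937), AT5G11420 (0.920) and AT4G30170 (0.913). The closest to TUB5 were AT5G11420 (0.884), TUB1 (0.879) and DRT100 (0.868), and to TUB6 they were BZIP61 (0.886), AT4G32460 (0.825) and AT5G11420 (0.816). AT5G11420 was near each of these 3 tubulins. It averaged 2.31 ± 2.14 in Stage I, below background, 145 ± 47.3 in Stage II and 89.7 ± 53.3 in Stage III (SD, n = 4 each).

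For the other tubulins the closest were AT1G73820 for TUB7 (r = 0.863), AT3G15410 for TUB9 (0.827), AT2G04795 for TUA1 (0.804) and AT1G31940 for TUA6 (0.804). Among tubulin pairs, r over the 27 arrays was highest for TUB1 with TUB5, and lowest for TUB1 with TUB7, at -0.206. For that last pair r was -0.673 over the 12 stage arrays and 0.282 over the 15 line arrays.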

How the data were processed

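Per the submitters' processing notes, the authors made the values with MAS5 (its version: not given in the sources used here). In this series the deposited signals are linear intensities, 1 per probe set and array, and their 2% trimmed mean was the same on each array. From 22810 probe sets 64 controls were left out. Genes were named through the array's platform annotation, which gives 13513 probe sets 1 gene, 503 several and 8794 none; microtubule and marker lists were matched by locus.

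Signals were used without further scaling as log2(signal + 2.37), the 10th percentile of all values, and fitted in limma 3.58.1 under R 4.3.3 with an intensity trend, a mean per group, and 12 stage and 15 line arrays apart. Two-sided p-values were Benjamini-Hochberg adjusted over 22746 probe sets and tested at 0.05, in 8 comparisons. The procedure was tested on simulated data. Background, 14.78, is the 95th percentile over 12 bacterial controls that were assumed not to be spiked in. The number of arrays limits the precision.

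Deviations from the stage mean correlated for stage arrays of the same number (r = 0.109 to 0.380 in 12 pairs). For different numbers r ran from -0.0252 to 0.252 within a spike-in class and from -0.345 to -0.0707 across the classes. The numbers were taken to pair the stages in an alternative fit, and the main fit had no block. The labels do not say what a number shares, and numbers 1 and 2 are also the low spike-in class. For named genes, block values stand beside the stage results whose call they change. Alternatives covered the pseudocount, quantile normalization, a dim-signal filter, the trend, a 2-fold minimum, replicate and spike-in blocks, all arrays in one fit, Columbia lines alone and leaving out each array. The members, lists and tests were chosen with earlier results of these data known. All tubulins are named. Of each list, up to 4 genes past the threshold per comparison, by smallest adjusted p, may be named. TFCC, TFCE, ACT12, CO2, JKD, GSO1, AT2G39430, PASPA3 and PHV were added where not called as the remaining members of their lists. For likeness the 3 genes with the highest r were taken.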

Additional observations from a re-analysis of the deposited data

Results flagged for a closer look

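Dixon's test for a single array far from its group was run on the 21 tubulin groups of 4 stage arrays and found 2, where chance gives about 1 in 20. TUB1 measured 1540.0 on Stage II replicate 4, and the gap to its nearest neighbour was 0.863 of the group's range. TUA1 measured 22.5 on Stage II replicate 3, at a ratio of 0.847. Without either array the calls of TUB1 between stages were kept. The TUA1 difference of Stage III over Stage II was not called (limma adjusted p = 0.0517); its alternatives are given under the processing.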

How the results depend on the processing

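Over 1358 combinations of a tubulin difference and an alternative, none reversed a called direction, 26 lost a call and 36 gained one. The calls of TUB1, TUB5 and TUB6 between Stages II and I held under every alternative. A required 2-fold change left 0 calls in Stage III minus Stage II (4 otherwise) and 0 in J3411, SCR, WOL and GL2 (1 each). One fit over all 27 arrays gave 3 in J3411 and 2 each in SCR, WOL and J0571. For WOL a pseudocount of 11 (the 25th percentile), the dim-signal filter and no trend gave 2 each, with TUA1 added; no trend gave 0 in GL2. The spike-in block and the high class alone gave 0 in SCR, where 389 probe sets were called in that class, against 3974 in all. Leaving out single arrays gave 4 to 5 calls in Stage II minus Stage I, 2 to 5 in Stage III minus Stage II, 4 to 5 in Stage III minus Stage I, 1 to 3 in J3411, 0 to 2 in SCR, 0 to 2 in WOL, 0 to 1 in GL2 and 1 to 2 in J0571. Over all probe sets the share called also moved between alternatives. It ran from 12.0% to 26.1% in Stage II minus Stage I and 21.1% to 36.5% in Stage III minus Stage II. In Stage III minus Stage I it was 33.0% to 47.6%. For the lines it ran from 5.08% to 13.4% in J3411, 1.71% to 22.4% in SCR and 3.24% to 8.95% in WOL. It was 7.06% to 15.7% in GL2 and 1.79% to 8.47% in J0571. The cause of these changes was not tested. The TUA1 difference of 0.80 in Stage III minus Stage II (adjusted p = 0.0517) passed the threshold without Stage I replicate 1 (adjusted p = 0.0355) or 4 (0.0187), with the filter (0.0322), one fit over all arrays (0.0355), the replicate block (0.0369), the spike-in block (0.0403), the pseudocount of 11 (0.0489) and no trend (0.0493), and not under the other alternatives.

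Quantile normalization moved the median of all probe sets by -0.18 in Stage III minus Stage II, -0.12 in Stage III minus Stage I, -0.16 in WOL and 0.13 in GL2; the share of calls that were higher in WOL was 65.2%, against 79.2%. It added the call of TUB9 in Stage III minus Stage I (0.42, adjusted p = 0.0310) and changed no other tubulin call. The replicate block gave 5 tubulin calls in each stage comparison and changed no tubulin call between lines. Among other genes named for lines it ended the call of SP1L4 in WOL (adjusted p = 0.0561). Line arrays of the same number did not deviate together (r = -0.310 to 0.235), so they share only a number. TUA1, near background, is limited most by its signal.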
